A study of Mus musculus with 3 samples.

Results

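Rab GTPases are the largest family of small GTP-binding proteins of the Ras superfamily, and their genes were taken here as a family by name. A probe belonged when its gene name in the array files was Rab and a number, with at most a letter and a further digit (Rab4b). Measured values played no part in this rule, although the family was chosen with earlier results of these data known. The rule gave 97 probes of 53 genes, out of 41174 probes of 29273 gene names on the array. Of these genes, 20 had 1 probe and 33 had several, up to 4. Probes of Rab7b, Rab30, Rab31 and Rab43 (8 in all) carry other names in the files, so these 4 genes fall outside the rule.

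A Rab protein switches between a GTP-bound form, which sits on a membrane and recruits effector proteins, and a GDP-bound form, which a GDP dissociation inhibitor holds in the cytosol. Exchange factors load GTP, GTPase activating proteins end the active state, and geranylgeranyl groups added at the C terminus anchor the protein. Each Rab marks its own compartment or vesicle, and in a mammary epithelial cell the family directs recycling of receptors, delivery of junction proteins, and secretion at the apical side.

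RNA was measured in EpH4-PR cells on 3 Agilent two-colour arrays of the whole mouse genome, numbered 1 to 3 and each on a slide of its own. EpH4 is a mouse mammary epithelial line derived from the gland in mid-gestation, and EpH4-PR is its derivative with a stable PR-A transgene, from clones selected and kept in G418, harvested in serum-containing DMEM before confluence. Cy5 marked the EpH4-PR RNA throughout and Cy3 a standard mouse RNA sold as a reference (Stratagene), without a dye swap, so a dye bias of a probe cannot be told apart from its ratio. Control EpH4-EV cells were not analysed here, and a ratio below is therefore a level relative to the reference RNA, in a single transfected line, and measures no effect of PR.

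Spots had a median Cy5 intensity of 93.8 to 113, the number of arrays limits the precision, and whether the arrays are separate cultures is not stated. The log2 ratios of the Rab probes had a Pearson correlation of 0.955 to 0.960 between arrays, across probes, which are no replicates of each other. The epithelial label was checked against markers, and all 9 probes of 8 luminal epithelial genes were well above background in EpH4-PR RNA on every array. Of these, 8 were called higher than in reference RNA and Krt19 lower (log2 ratio -2.62). Of 13 probes of 6 mesenchymal genes 7 were called lower and 0 higher, and 8 were well above background on all arrays. Well above background on all arrays were also 2 of 6 melanocyte, 5 of 15 neuronal and 4 of 8 leukocyte probes. Of the leukocyte probes 4 were called lower and 0 higher, and of the melanocyte and neuronal probes 0 were called either way. The part of such genes in the Rab values was not tested.

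Here a log2 ratio is EpH4-PR over reference after loess normalization within the array, and a probe was called higher or lower when limma's adjusted p (Benjamini-Hochberg over all 41171 probes tested) was under 0.05 and the ratio was at least 1 log2 unit either way. By this rule 6 Rab genes had a called probe. Rab4b and Rab15, which act in early and recycling endosomes, and Rab23, which acts at the primary cilium and restrains Hedgehog signalling, were higher. Rab3a of synaptic and secretory vesicles, Rab6b of the Golgi and Rab12 of the route from recycling endosomes to lysosomes were lower. The 3 higher probes were 3.09% of the family, beside 2.26% of all probes, and the 3 lower probes were likewise 3.09%, beside 3.83% of all probes, so the family's shares lay near the background (6.1% of all probes either way). Over the 71 Rab probes well above background in Cy5 and Cy3 on all arrays, the same calls made up 4.23% each, beside 3.47% higher and 5.67% lower among all such probes. Under median centring of each array in place of loess, 32 Rab probes were called higher and 2 lower, beside 17.1% and 1.72% of all probes.

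Promoter sequences are shown for the called genes whose RefSeq window begins at the annotated 5′ end of the gene, to set the letters upstream of the start beside the values that follow. A RefSeq window (assembly GRCm38.p6) was found by current symbol for 45 of the 53 genes, and the array files themselves name no build. Each line is the 250 bases before the annotated start, 5′ to 3′ on the gene's strand, and capitals mark matches, on either strand, to the GC box GGGCGG, the CCAAT box or the E-box CACGTG.
Rab4b: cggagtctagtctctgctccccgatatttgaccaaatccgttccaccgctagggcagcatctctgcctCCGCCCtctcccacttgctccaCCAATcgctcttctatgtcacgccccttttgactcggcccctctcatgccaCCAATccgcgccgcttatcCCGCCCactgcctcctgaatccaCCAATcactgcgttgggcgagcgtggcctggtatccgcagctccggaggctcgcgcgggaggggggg
Rab23: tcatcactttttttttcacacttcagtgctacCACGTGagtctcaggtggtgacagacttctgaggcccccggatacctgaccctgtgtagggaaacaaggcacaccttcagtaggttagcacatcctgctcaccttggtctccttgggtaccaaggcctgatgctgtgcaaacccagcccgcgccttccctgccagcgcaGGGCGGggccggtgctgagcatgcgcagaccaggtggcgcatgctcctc
Rab3a: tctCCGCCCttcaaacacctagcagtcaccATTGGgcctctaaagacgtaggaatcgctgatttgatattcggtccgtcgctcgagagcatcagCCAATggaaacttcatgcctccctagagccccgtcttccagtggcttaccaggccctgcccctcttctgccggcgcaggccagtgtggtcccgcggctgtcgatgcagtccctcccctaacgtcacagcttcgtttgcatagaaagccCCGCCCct

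The Rab4b stretch lies at chr7:27178884-27179133 on the minus strand, the Rab23 stretch at chr1:33719646-33719895 and the Rab3a stretch at chr8:70754453-70754702, both on the plus strand. The Rab23 stretch overlaps the annotated gene Gm32229. The Rab4b stretch held 20 CpG and a GC content of 63.2%, with 3 CCAAT boxes on the gene's strand and 2 GC boxes on the opposite strand. The Rab3a stretch held 16 CpG, 2 GC boxes and 2 CCAAT boxes, and the Rab23 stretch 9 CpG, 1 GC box and an E-box that starts 218 bases before the gene. Rab23 and Rab3a each have a second window, not printed, from annotated starts 523 and 399 bases past the 5′ end. These held 42 and 15 CpG. The median window of the family held 16 CpG and 61.2% GC, against 6 CpG and 52.4% over all 32851 windows.

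A GC box stood in 64.8% of the family's 54 windows (33 of 45 genes), against 32.7% of all windows, and a CCAAT box in 42.6% against 33.8%. The TATA box letters TATAAA stood in 5.56% of the family's windows against 12.4% of all, and the E-box in 9.26% against 6.02%. The letters TGTTCT, to which steroid receptors including the progesterone receptor can bind, stood in 16.7% of the family's windows against 16.1% of all windows, both strands searched. The Rab windows were thus rich in CpG and GC boxes, and near all windows in TGTTCT, which none of the 3 printed stretches holds. The called gene Rab15 has a window, not printed, that holds TGTTCT on the opposite strand. That window belongs to an annotated start 8903 bases past the 5′ end of the gene.

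Rab23 had the highest ratio of the family, and one of its probes (A_52_P623538) read 1636, 1459 and 1515 intensity units in EpH4-PR RNA on replicates 1, 2 and 3, against 312, 300 and 294 in reference RNA. The EpH4-PR channel was the brighter on every array and the channels did not overlap. Raw channels differ in scale, so brightness before normalization gives no direction by itself. An uncalled Rab1 probe (A_51_P326023) read 4502, 3654 and 4262 against 1520, 1385 and 1539, at a log2 ratio of -0.04. The log2 ratio of the Rab23 probe was 1.29, 1.22 and 1.15. Its mean was 1.22 ± 0.07 (SD, n = 3 arrays), 2.33-fold higher (limma, SE 0.05, adjusted p = 5.48e-05). The other Rab23 probe (A_51_P344668) was at 0.63, 0.51 and 0.74 (mean 0.63 ± 0.11, SD, limma adjusted p = 0.00076), above 0 on every array but under the 1 log2 unit that a call needs. It was called with median centring (1.15), normexp offset 0 (1.07) and the scanner software's ratio (1.63).

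Rab15, a Rab of early and recycling endosomes best known from neurons, read 413, 337 and 386 in EpH4-PR RNA against 165, 126 and 109 in reference RNA. All EpH4-PR values lay above all reference values before normalization, which gives no direction by itself. The reference was near the median negative control spot, at 119, 121 and 91.8 in that channel. The log2 ratio of 0.89, 1.36 and 1.26 had a mean of 1.17 ± 0.25 (SD), 2.25-fold higher, with a limma adjusted p of 0.00057. Replicate 1 was the low array of the 3 and fell under 1 log2 unit on its own.

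Rab4b, a paralog of Rab4a that returns receptors from early endosomes to the surface, read 716, 643 and 725 against 204, 202 and 184. Its log2 ratio was 1.08, 0.99 and 1.02 (mean 1.03 ± 0.05, SD), 2.04-fold higher with a limma adjusted p of 6.83e-05, so it passed the fold limit by little. The only Rab4a probe varied from -0.48 to 0.09 with a mean of -0.21 ± 0.29 and an adjusted p of 0.18 by limma.

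Rab6b, the isoform of the Golgi Rab6 known from neurons, had the lowest ratio of the family. The Rab6b probe A_52_P11441 read 106, 101 and 92.4 in EpH4-PR RNA against 534, 468 and 501 in reference RNA. The EpH4-PR signal stood above the median negative control spot of its channel (72.6, 74.1 and 57.3) by little, so the size of the ratio leans on the background correction. The log2 ratio was -3.24, -3.07 and -3.37 (mean -3.23 ± 0.15, SD), 9.37-fold lower with a limma adjusted p of 1.81e-05. With the scanner software's own ratio the mean was -4.69.

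Rab12 probe A_51_P296027 read 149, 159 and 123 against 412, 393 and 377, with a log2 ratio of -2.31, -2.17 and -2.51. The mean of -2.33 ± 0.17 (SD) was 5.03-fold lower, with a limma adjusted p of 3.55e-05. Rab3a, which tethers vesicles for calcium-triggered release, read 132, 120 and 113 against 225, 222 and 187, and its log2 ratio of -1.13, -1.26 and -1.25 had a mean of -1.21 ± 0.08 (SD), 2.32-fold lower (limma adjusted p = 6.05e-05). For Rab12 and Rab3a the reference channel was the brighter on all 3 arrays before normalization, and the channels did not overlap. The median negative control spot was also brighter in that channel (119, 121 and 91.8 against 72.6, 74.1 and 57.3). The order of the raw channels thus gives no direction by itself. Under median centring Rab3a was at -0.77 and no longer called.

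**Figure D1:**
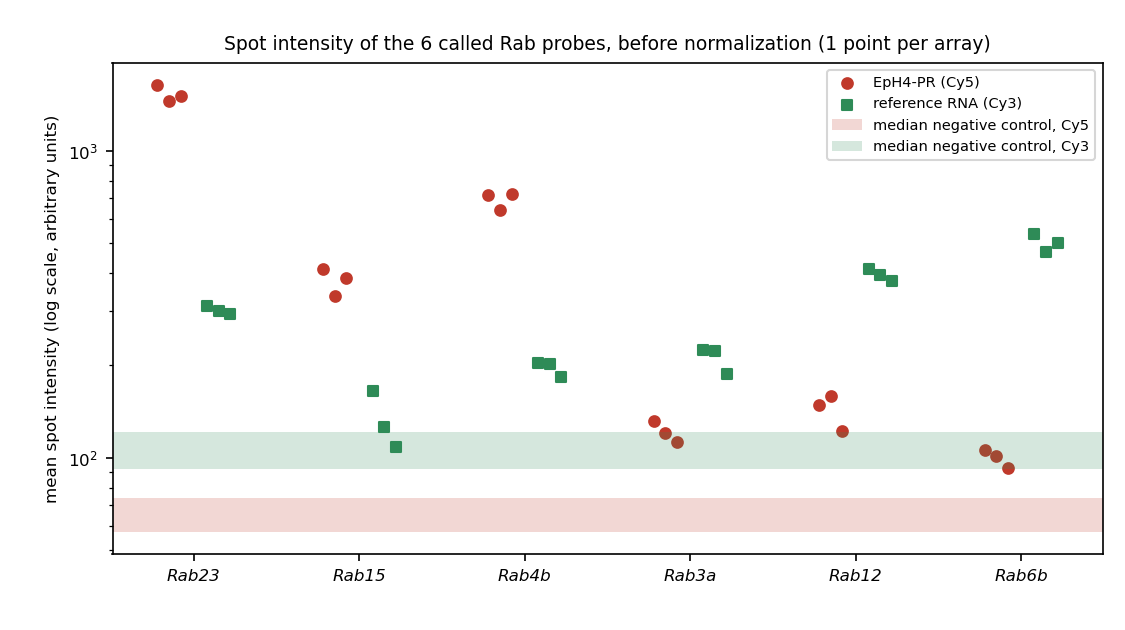
Mean spot intensity (log scale, arbitrary units, before normalization) of the called Rab probes, with 1 point per array for EpH4-PR RNA (Cy5) and for reference RNA (Cy3). EpH4-PR points lie above the reference for Rab23, Rab15 and Rab4b, and below it for Rab6b, Rab12 and Rab3a, with no overlap of the channels. Raw channels differ in scale, so their order gives no direction by itself.

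The members nearest to a call were Rab25 above and Rab2b below. Rab25, an epithelial member of the Rab11 group that recycles integrins and apical proteins, was at 1.12, 0.93 and 0.71 (mean 0.92 ± 0.21, SD, limma adjusted p = 0.00079). Rab25 was above 0 on all arrays, and it was called without replicate 3 (1.03), with median centring (1.36), with normexp offset 0 (1.69) and with the scanner software's ratio (1.96). Rab2b, a Golgi Rab, was at -0.80, -0.78 and -1.01 in its lower probe (mean -0.86 ± 0.13, limma adjusted p = 0.000305), while its other probe averaged -0.04. The lower probe was called with normexp offset 0 (-1.24) and with the scanner software's ratio (-1.27), and was at -0.25 with median centring.

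Most of the family lay close to the reference RNA by loess, as did most of all probes. The median log2 ratio over the 97 probes was 0.0024, beside -0.0094 over all probes (0.45 for the Rab probes under median centring). By loess 75 Rab probes were within 0.5 log2 units of 0 and 91 within 1. Of all 41171 probes tested, 32626 and 38660 were. The range ran from -3.23 to 1.22, and 78 probes had the same sign on all 3 arrays. By the adjusted p alone, with no limit on size, 33 Rab probes were higher (34.0%, beside 25.7% of all probes) and 28 lower (28.9%, beside 24.6%). The median SD between arrays was 0.07 over the Rab probes and 0.09 over the 25727 probes that stood well above background in Cy5 and in Cy3, and Rab20 had the widest spread of the family, 0.36.

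**Figure D2:**
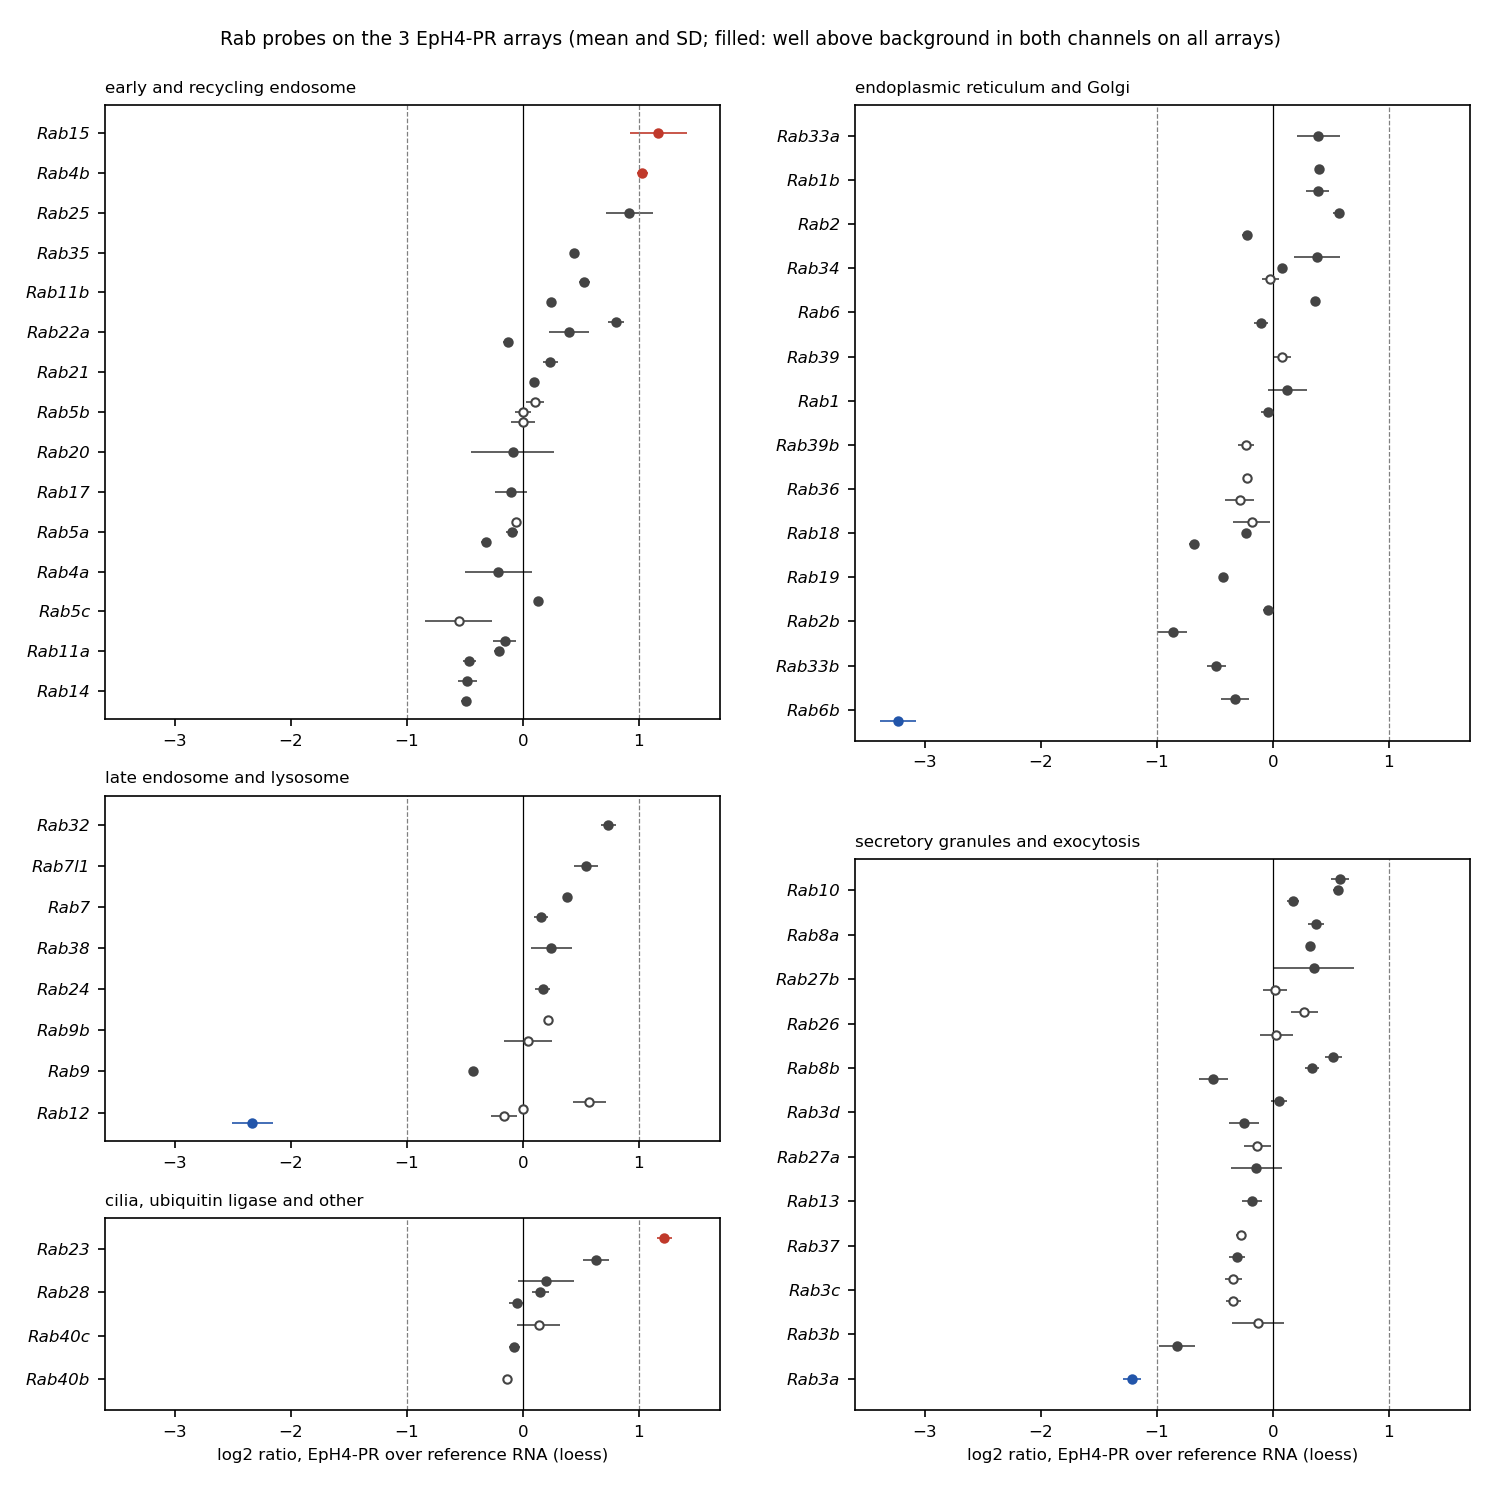
Mean log2 ratio (EpH4-PR over reference RNA, horizontal axis) of every Rab probe with its SD over the 3 arrays, grouped by the compartment in which the Rab is known to act. Filled points carried the scanner software's flag for well above background in Cy5 and Cy3 on all arrays, most points lie within 0.5 log2 units of 0, and Rab6b and Rab12 each have a probe far to the left of their others.

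Detection was read from the scanner software's flag for a spot well above background, and a probe with that flag is called bright below. A flagged spot can still be near the negative control spots. One Rab5b probe (A_52_P92347) was flagged in EpH4-PR RNA on all arrays at 80.3, 84.3 and 67.8. The median negative control spot of that channel was at 72.6, 74.1 and 57.3. In EpH4-PR RNA 75 of the 97 Rab probes (77.3%) carried the flag on all 3 arrays, beside 68.9% of all probes. On some arrays 10 carried it, and 12 on none. For 47 of the 53 genes at least 1 probe carried it on all arrays. Rab3c, Rab39b and Rab40b had no such probe on any array. Rab3c, a vesicle Rab of neurons and endocrine cells, carried the flag in the reference on all arrays in both probes. The reference read 131, 132 and 106, and 133, 132 and 104, against a median negative control spot of 119, 121 and 91.8. The Rab3c ratios are thus those of spots dim in both channels. Both probes were at -0.34, or 1.27-fold and 1.26-fold lower in EpH4-PR RNA (limma adjusted p = 0.0032 and 0.0037). These folds are estimates and no lower bounds. Setting the dim channel to the lowest signal among probes well above background on that array, where that was higher, left them unchanged. Rab39b, a neuronal Golgi Rab, was at -0.23, or 1.17-fold lower, likewise an estimate and no bound (limma adjusted p = 0.014). Its reference read 128, 125 and 95.4, so its ratio too is that of a spot dim in both channels. Rab40b, which pairs with a ubiquitin ligase through a SOCS box, was well above background in the reference on only 1 array and at -0.13 (limma adjusted p = 0.055).

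The Rabs of early and recycling endosomes comprised 27 probes of 15 genes, of which 23 probes were well above background in EpH4-PR RNA on all arrays. Their median was 0.0024, and 2 probes were called higher (7.41%, beside 2.26% of all probes) and 0 lower (beside 3.83%). By the adjusted p alone 9 were higher (33.3%, beside 25.7% of all probes) and 6 lower (22.2%, beside 24.6%). Shares of single groups, here and below, were not tested. The genes of Rab5 proteins, which drive fusion of early endosomes, lay near 0 by loess. Rab5a probes were at -0.32, -0.09 and -0.06 and Rab5b probes at 0.0041, 0.0024 and 0.11. The last Rab5a probe was well above background on no array in either channel. The Rab5b probes read 63.9 to 85.2 in EpH4-PR RNA, near the negative control spots. Rab5c was at 0.13 in its bright probe and at -0.55 in a probe well above background in EpH4-PR RNA on only 1 array. Under median centring Rab5a was at 0.89, 0.92 and -0.23, Rab5b at -0.23, -0.24 and -0.13, and Rab5c at 1.29 (called higher) and -0.67. Rab11a, which recycles cargo to the apical surface, was at -0.46, -0.21 and -0.16, and its paralog Rab11b was at 0.25 and 0.53. Rab11a turned above 0 under median centring, at 0.84, 0.99 and 0.48, and Rab11b remained above 0, at 0.65 and 1.74.

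Rab14, which links the Golgi and endosomes, was at -0.49 and -0.48 (limma adjusted p = 0.0007 and 0.0013) and at 0.77 and 0.023 under median centring. Rab17, an epithelial Rab of transcytosis and the apical recycling endosome, was at -0.01, -0.03 and -0.26 (mean -0.10 ± 0.14, SD, limma adjusted p = 0.26). Rab22a, of the recycling endosome, had probes at 0.81, 0.40 and -0.13. Thus Rab11a and Rab11b differed in sign by loess, and the epithelial members Rab25 and Rab17 stood at opposite sides of 0, of which only Rab25 passed the adjusted p.

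The Rabs of late endosomes and lysosomes were 13 probes of 8 genes with a median of 0.17. By the adjusted p alone 8 of them were higher (61.5%, beside 25.7% of all probes) and 2 lower (15.4%, beside 24.6%). Rab7, which controls fusion of late endosomes with lysosomes, was at 0.38 and 0.16 (limma adjusted p = 0.0014 and 0.040). Rab12 gave the only called probe of the group (lower, 7.69%, beside 3.83% of all probes). The Rabs of the endoplasmic reticulum and Golgi were 25 probes of 14 genes with a median of -0.10. By the adjusted p alone 6 were higher (24%, beside 25.7% of all probes) and 11 lower (44%, beside 24.6%). Rab6b was the only called gene (lower, 4% of the probes, beside 3.83%). Rab2, which acts between the endoplasmic reticulum and the Golgi, was at 0.57 and -0.22 in its 2 probes.

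The Rabs of secretory granules and exocytosis were 24 probes of 12 genes, with a median of -0.06. By the adjusted p alone 8 probes were higher (33.3%, beside 25.7% of all probes) and 9 lower (37.5%, beside 24.6%). Rab3a alone was called (lower, 4.17%, beside 3.83%). Rab8a, which carries cargo from the Golgi to the plasma membrane and the cilium, was at 0.37 and 0.32. Rab10, of basolateral delivery, was at 0.58, 0.56 and 0.17, above 0 on every array in all 3 probes. Rab13, of tight junction delivery, was at -0.18 ± 0.09 (SD, limma adjusted p = 0.040) and at 0.13 under median centring.

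Among the granule Rabs, Rab3b was at -0.82 and -0.13, the latter from a probe not well above background in EpH4-PR RNA on any array. Rab3d, of exocrine granules, was at -0.25 and 0.05. Rab27a, which docks secretory granules and exosome-bearing endosomes, was at -0.14 and -0.13, and Rab27b at 0.36 ± 0.35 and 0.02 (limma adjusted p from 0.078 to 0.82 over these 4 probes). No Rab27 probe passed the adjusted p. The last group, of cilia, ubiquitin ligases and other roles, had 8 probes of 4 genes with a median of 0.14, and beside the 2 Rab23 probes none passed the adjusted p.

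Probes of the same gene did not always give the same value. Over the 33 genes with several probes, the range between probes had a median of 0.29 log2 units, and 9 genes had a range over 0.5. The widest were Rab6b at 2.91 and Rab12 at 2.90, followed by Rab8b, Rab22a, Rab2b, Rab2, Rab3b, Rab5c and Rab23. Of the 9 genes, 6 were among the 21 genes with several probes bright in both channels. In 11 genes the probe means lay on both sides of 0.

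By the flag, both Rab6b probes were bright in both channels on all arrays. The second (A_51_P276418) read 86.8, 87.8 and 79.0 in EpH4-PR RNA against 135, 143 and 120 in reference RNA, with a log2 ratio of -0.32 ± 0.12 (SD, limma adjusted p = 0.0095), below 0 as the first but 2.91 log2 units apart from it, and called only with the scanner software's ratio (-1.10). The probes thus read close to each other in EpH4-PR RNA and apart in the reference, although intensities of different probes are not levels of the gene. The median negative control spot was at 72.6, 74.1 and 57.3 in Cy5 and at 119, 121 and 91.8 in Cy3. The second probe was near it in both channels, so its ratio is that of a dim spot.

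Rab12 had 4 probes. A second one with the same RefSeq accession as the called probe (A_52_P313728) was at 0.57 ± 0.14 (SD, limma adjusted p = 0.0016), of the opposite sign, with 104, 106 and 96.1 in EpH4-PR RNA against 118, 111 and 87.0 in reference RNA, which was well above background on only 1 array. The other Rab12 probes, on other accessions, were at -0.16 and 0.0021. In EpH4-PR RNA these were well above background on 0 arrays and on 1 array. They read 73.3, 72.7 and 61.5, and 74.8, 81.8 and 65.4, near the median negative control spot (72.6, 74.1 and 57.3). The reference signal of A_52_P313728 lay below its negative control (119, 121 and 91.8). The sign for Rab12 thus depended on the probe, and of the 4 only the called probe was bright in both channels on all arrays. Rab8b, a paralog of Rab8a, was split too by loess, at -0.51, 0.34 and 0.52, each past the adjusted p by limma (0.0020, 0.0032 and 0.00082). Under median centring these probes were at 0.21, 0.29 and 0.74, all above 0. The probe at 0.34 was dim, at 121, 123 and 103 against 127, 127 and 97.9 in the reference. When the probes of a gene were averaged before the test, 2 genes were called higher and 2 lower in place of 3 and 3, as Rab23 (mean of its probes 0.92) and Rab12 (-0.48) lost their calls, and Rab6b was at -1.77. The Rab12 mean included the probes that were not bright in both channels. Which transcripts each probe reads, and cross-hybridization between close paralogs, were not tested.

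**Figure D3:**
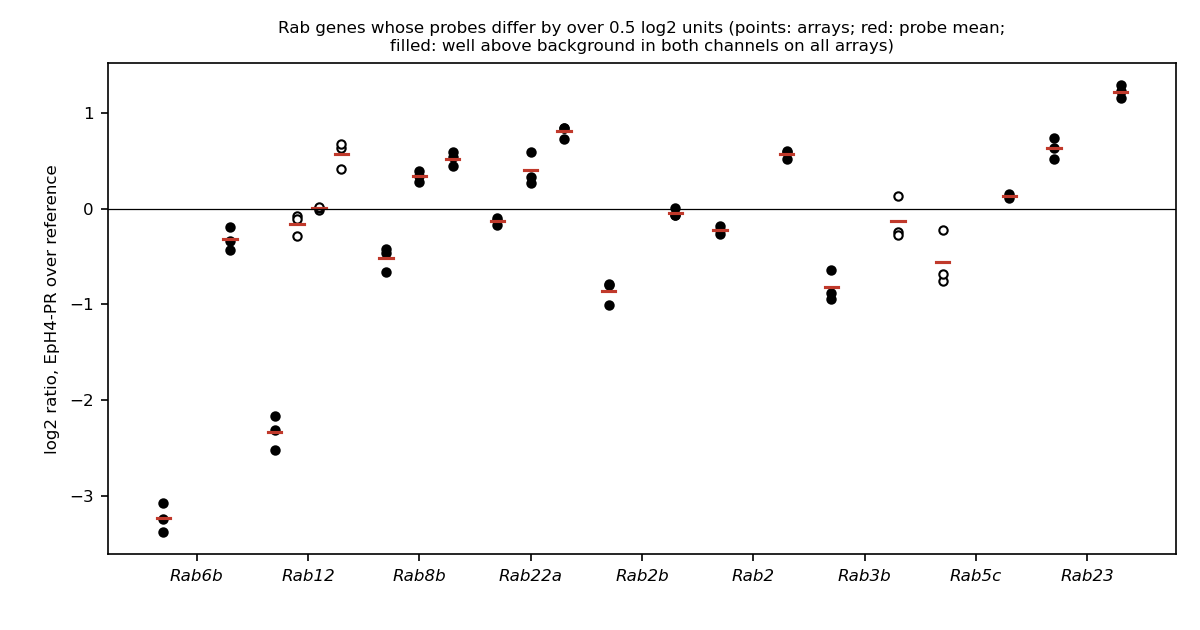
Log2 ratio (EpH4-PR over reference RNA, vertical axis) of each probe of the 9 Rab genes whose probes differ by over 0.5, with 1 point per array, the probe mean in red, and filled points for probes bright in both channels on all arrays. The arrays of a probe lie close together while the probes of Rab6b and Rab12 lie 2.91 and 2.90 log2 units apart.

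The normalization decided how the family stood against the reference RNA. Median centring, which applies 1 shift to a whole array, raised the Rab probes by a median of 0.50 log2 units over loess, from -0.25 to 1.41 by probe, and all probes bright in both colours by a median of 0.55, while the median over all probes moved by -0.0081. The family's median was then 0.45, and 65 Rab probes were above 0 in place of 50. From below to above 0 went 24 probes, and 33 changed sign in all. Rab23, Rab15, Rab4b, Rab6b and Rab12 were called under both, at 2.39, 1.83, 1.99, -2.50 and -1.56 with median centring.

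**Figure D4:**
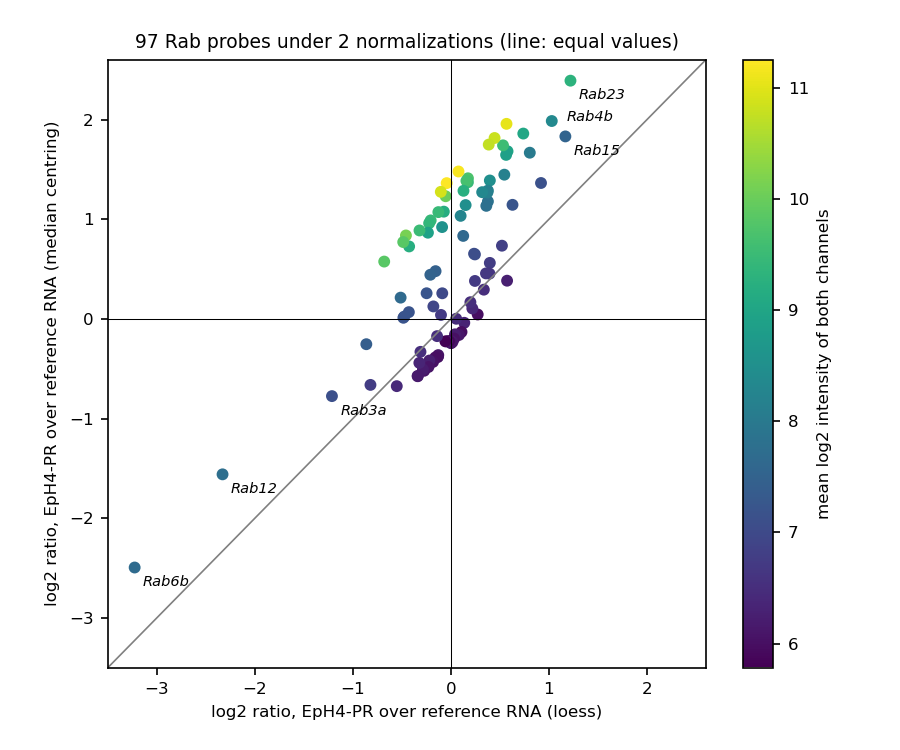
Log2 ratio (EpH4-PR over reference RNA) of the 97 Rab probes under loess (horizontal axis) and under median centring (vertical axis), with a line of equal values and each point coloured by the probe's mean log2 intensity over both channels. The brighter probes lie farther above the line. Most points lie above the line, by a median of 0.50 log2 units, and the called probes Rab6b and Rab12 stay far below 0 under both.

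Proteins that act on Rabs were followed by a list chosen by function, of which 97 of 108 genes had a probe (156 probes). Their median ratio was 0.08, 7 probes were called higher (4.49%, beside 2.26% of all probes) and 5 lower (3.21%, beside 3.83%). By the adjusted p alone 63 were higher (40.4%, beside 25.7%) and 38 lower (24.4%, beside 24.6%). Under median centring 39 of the 156 were called higher and 3 lower, beside 7031 (17.1%) and 708 (1.72%) of all 41171 probes tested. Of the 156 probes, 138 were well above background in EpH4-PR RNA on all arrays.

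The exchange factors had 33 probes of 21 genes, 2 called higher (6.06%, beside 2.26% of all probes) and 1 lower (3.03%, beside 3.83%). Dennd2d, of the DENN domain family, was at 1.02 ± 0.09 (SD) in its called probe and at 0.83 ± 0.09 in its other probe, which was not called. The only probe of its relative Dennd2a was called lower, at -1.80 ± 0.21, on the opposite side of the reference RNA.

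The GTPase activating proteins had 41 probes of 26 genes, 2 called higher (4.88%, beside 2.26% of all probes) and 1 lower (2.44%, beside 3.83%). Usp6nl, which acts on Rab5, was at 1.38, 1.19 and 1.14 (mean 1.24 ± 0.13, SD, limma adjusted p = 0.0001). Tbc1d2, which acts on Rab7, was at 1.15 ± 0.06 in its called probe and at 0.0094 ± 0.09 (limma adjusted p = 0.89) in its other probe, bright in both channels too. Tbc1d16, which acts on Rab4a, was at -1.17 ± 0.06 in its only probe. The Tbc1d2 call thus depended on the probe.

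The effectors had 67 probes of 42 genes, 3 called higher (4.48%, beside 2.26% of all probes) and 2 lower (2.99%, beside 3.83%). Rab11fip5, which binds Rab11, had a called probe above 0 on all arrays (mean 1.11 ± 0.02, SD, limma adjusted p = 4.76e-05) and a second probe, likewise bright in both channels, at -0.72, -0.61 and -0.63 (mean -0.65 ± 0.06, limma adjusted p = 0.0003), so its sign depended on the probe. Myo5b, the motor that pairs with Rab11a and Rab25 in apical recycling, had 4 probes, of which those at 1.28 and 1.22 were called higher, with a reference signal well above background on only 2 arrays and 1 array. The Myo5b probe bright in both channels on all arrays was at 0.26 and the remaining one at -0.07, and neither was called. Mical1, which oxidizes actin and binds Rab proteins, had the lowest ratio of the list, at -3.01 ± 0.12 (SD), 8.06-fold lower with a limma adjusted p of 1.68e-05. Sytl2, a Rab27 effector of granule docking, was at -1.16 ± 0.10 and at -0.87 with median centring.

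The prenylation, escort and GDI genes had 15 probes of 8 genes. Of these, 0 were called higher (beside 2.26% of all probes) and 1 lower (6.67%, beside 3.83%). The called one was Rabac1, a Golgi protein that releases Rabs from GDI, at -1.40 ± 0.04 (SD, limma adjusted p = 3.23e-05) by loess and at -0.04 with median centring. Its place below the reference therefore rests on the normalization.

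**Figure D5:**
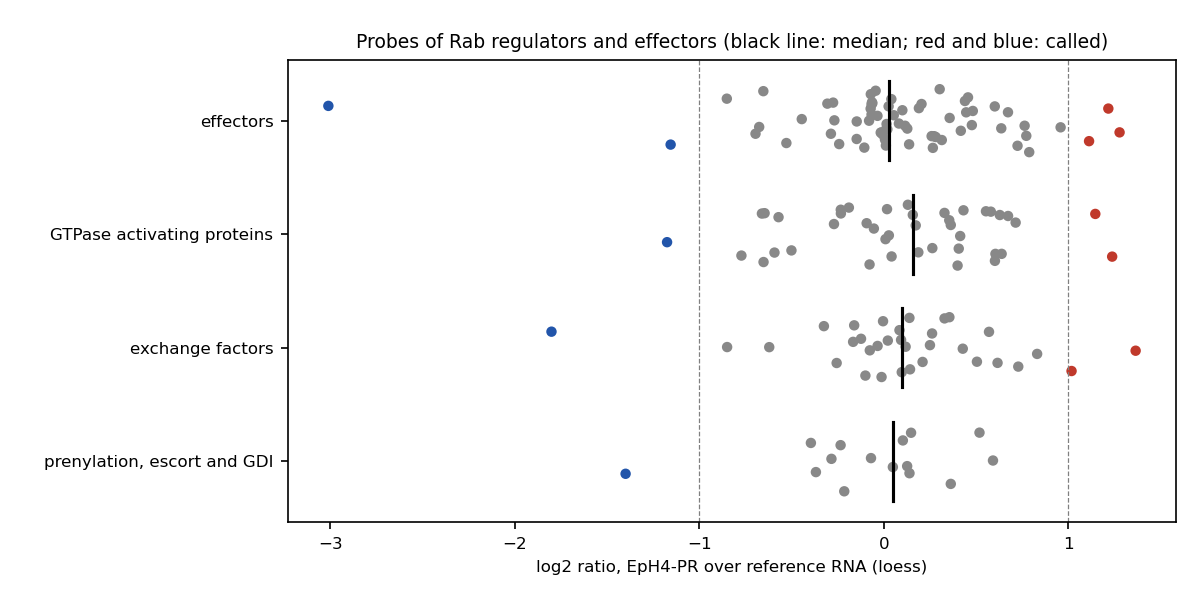
Mean log2 ratio (EpH4-PR over reference RNA, horizontal axis) of the 156 probes of Rab regulators and effectors in 4 classes, with the class median as a black line and called probes in red (higher) and blue (lower). The medians lie between 0.03 and 0.16, and Mical1 lies farthest from 0.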

How the data were processed

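The authors deposited the scanner output of 3 two-colour arrays (Agilent Feature Extraction 8.1.1.1 per the file headers), with spot and local background intensity in Cy5 and Cy3, quality flags and the software's log10 ratio (red over green). A fold-change table that the authors deposited, with a log ratio, a ratio, a fold change, a p-value, intensities of 2 unnamed sides and an error for each probe, was not used here.

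Mean spot intensity was corrected with limma's normexp (offset 50) on the local background and normalized within arrays by loess, with control and outlier spots at weight 0. Outlier spots (150, 18 and 3, none of them a Rab spot) were left out and the spots of a probe averaged. limma's lmFit and eBayes tested each ratio against 0 (R 4.3.3, limma 3.58.1, Python 3.11.15), with Benjamini-Hochberg adjustment over 41171 probes, and calls needed an adjusted p under 0.05 and 1 log2 unit. The fit was tested on simulated data. A p-value measures only the spread between these arrays, which may be technical. The median negative control spot exceeded the local background in both channels, so ratios of dim spots are shrunk.

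Named genes were Rab genes with a called probe, with probes over 0.5 log2 units apart or with no probe well above background on any array, 16 Rab genes fixed by function, and the 5 highest and 5 lowest called regulator probes well above background in both channels, of which 1 is not reported here. Rab20, Rab4a and Myo5b were added after their values were seen. The family, the lists and the roles were chosen with earlier results of these data known. Symbols and promoters came from RefSeq (GRCm38.p6), which matched 79 Rab probes, and renamed 4 genes (Rab1, Rab2, Rab6 and Rab7l1 are now Rab1a, Rab2a, Rab6a and Rab29). Alternatives covered the background correction, the scanner software's log10 ratio, normalization within and between arrays, spot summary, outlier spots, a filter on dim probes, an intensity trend, each array left out, the detection flag and the mean of a gene's probes.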

Additional observations from a re-analysis of the deposited data

How the results depend on the processing

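No paired analysis was possible because there is 1 group, and slide or scan as a block was not run since each slide holds 1 array. Rab23, Rab15, Rab4b, Rab6b and Rab12 kept their called probe under all 11 alternatives of the probe fit, and Rab3a under all but median centring. With normexp offset 0, calls were 9 higher and 9 lower among Rab probes (3125 and 3905 among all probes, 26 and 9 among regulators) and the Rab median was 0.050. With the scanner software's ratio they were 11 and 11 (3616 and 3887, 30 and 9). With median centring they were 32 and 2 (7031 and 708, 39 and 3), with a Rab median of 0.45, and the median spot intensity gave a Rab median of -0.023. Leaving out each array gave 3 to 4 Rab probes higher (Rab25 joined without replicate 3, as it did with median centring, offset 0 and the scanner software's ratio), 3 lower, 6 to 8 regulators higher and a Rab median from -0.032 to 0.020. Probes well above background on all arrays were 75 by that flag, 88 by the flag for a positive and significant spot and 75 to 77 with an array left out. Averaging the probes of a gene left 4 called genes in place of 6, without Rab23 and Rab12. Signs turned with median centring for Rab11a (0.84, 0.48 and 0.99), a Rab12 probe (-0.24), Rab13 (0.13), Rab14 (0.77 and 0.023), Rab17 (0.040), Rab2 (0.96), Rab22a (1.07), Rab27b (-0.23), Rab3d (0.26), Rab5a (0.92 and 0.89), Rab5b (-0.13, -0.23 and -0.24) and Rab8b (0.21). They turned with the scanner software's ratio for that Rab12 probe (-0.52) and Rab5b (-0.25 and -0.22), and with the median spot intensity for Rab5b (-0.054 and -0.023). Leaving out each array moved that Rab12 probe from -0.0036 to 0.0087, Rab27b from -0.040 to 0.062 and Rab5b from -0.016 to 0.044 and from -0.056 to 0.034. The cause was not tested. Dim spots limit the ratios of 22 Rab probes that were not well above background in EpH4-PR RNA on every array. They also limit those of flagged probes near the negative control spots in either channel.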
